A study of Mus musculus with 12 samples.

Results

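Transcripts of antibody heavy and light chains were followed through sorted bone marrow populations with 68 array probes under 63 gene names, out of 23298 probes under 18556 gene names that were kept on the arrays. The probes were chosen by annotation alone. The gene name or the description had to name an immunoglobulin heavy, kappa or lambda chain or the joining chain, and Ighmbp2 and Igll1 were left out, which matched 76 of 39429 probes. A probe was kept if at least 1 group had both of its arrays marked well above background by the extraction software. Of the 8 matched probes that failed this, Ighe (the epsilon constant region) is 1, 3 are heavy chain probes named NP921750, DQ113493 and AF466698, 3 are kappa probes named Igkv4-53, Igkv6-15 and D85126, and the last is Rbpjl. The kept probes were 31 of heavy chain variable segments, 9 of heavy chain constant regions, 21 of kappa chains, 4 of lambda chains, 1 of Igj (the joining chain, now called Jchain) and 2 of Rbpj. Rbpj is a transcription factor of the Notch pathway that entered through its description, and it is left out where only immunoglobulin probes are counted, of which 66 were kept.

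The cells came from female C57BL/6 mice, 16 weeks old, all carrying a human CD4 (hCD4) reporter driven by an enhancer and promoter of Cebpa, the gene of a transcription factor of myeloid cells. There were 6 sorted groups with 2 arrays each: hCD4+ granulocyte-monocyte progenitors (GMP), pre-pro-B cells with and without hCD4, pro-B cells with and without hCD4, and pre-B cells, for which the labels do not state hCD4. The series title speaks of 2 mice, but the labels do not tie an array to a mouse, so a p-value here reflects only how far these samples spread, which may be technical. Pre-pro-B, pro-B and pre-B cells are successive steps on the way to a B cell, and GMP belong to the myeloid branch, so the comparison with them is one between branches. Amplified RNA was hybridised to one-colour arrays, and a level here is the log2 signal of a probe minus the 75th percentile of its own array. Levels of different probes were not compared with each other. Since each sample is RNA of many cells, fewer cells of a type and less RNA per cell cannot be told apart.

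An antibody is made of heavy chains and of light chains, which are either kappa or lambda. Developing B cells cut and join variable, diversity and joining gene segments with the RAG enzymes, at the heavy chain locus in pro-B cells and at the light chain loci mainly in pre-B cells. Segments that have not been joined, and constant regions, can be transcribed as well, so a probe signal does not by itself mean a joined gene. Mu (Ighm) and delta (Ighd) are the heavy chain constant regions of B cells that have not switched class, whereas gamma (IgG) and alpha (IgA) follow class switching and are typical of later B cells and plasma cells. The joining chain links the units of secreted IgM and IgA and is abundant in plasma cells.

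The arrays lay on 3 slides of 4 arrays: GMP with hCD4- pre-pro-B, hCD4+ pre-pro-B with hCD4- pro-B, and hCD4+ pro-B with pre-B. Each hCD4 comparison within a stage therefore sets 1 slide against another, and slide and hCD4 status cannot be told apart there. Pro-B over pre-pro-B cells of the same hCD4 status, and pre-B over hCD4- pro-B cells, also cross slides. Slide and stage cannot be told apart in those comparisons. Hybridisation was comparable, with 50.6 to 56.7% of probes well above background and correlations between replicates of 0.981 to 0.992. Signal was weakest in hCD4- pre-pro-B cells, with 75th percentiles of 346 and 235 units against 418 to 884 on the other 10 arrays, and their replicates differed most (median SD 0.226, against 0.0997 to 0.157 in the other groups). Vpreb1, part of the surrogate light chain of early B cells, read 6.37 to 8.22 on pro-B and pre-B arrays and -1.24 to -0.18 on GMP and pre-pro-B arrays. Elane, a neutrophil protease gene of myeloid progenitors, read 7.43 and 7.72 on GMP arrays and between -0.21 and 3.23 elsewhere.

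The probes are 60 bases long, and their sequence decides what a value can mean, because variable segments resemble each other. Positions are those of the array annotation on the mouse build mm9, which does not say whether they are exonic or intronic, and no genome of that build was used here. Those shown first are the constant region probes on which most results below turn. The array names 3 kept probes Igh-VJ558, after a variable family, but they lie beside the Ighe probe at the constant end of the locus, where the RefSeq gene order of assembly GRCm38.p6 places Igha, the alpha constant region. They are called IgA-place probes A, B and C here, and this name rests on position. The names Ighm, Ighd, Ighg2b and Ighg2c come from array descriptions matched to RefSeq synonyms. Probes A and B lie at chr12:114496985-114497044 and chr12:114497090-114497149, Ighg2b (the gamma 2b constant region) at chr12:114544738-114544797, and Iglc2 (lambda constant 2) at chr16:19198704-19198763, all on the minus strand. Igkc (the kappa constant region) lies at chr6:70676692-70676751 on the plus strand. None of these 5 shares a run of 20 bases or more with another kept probe of the set, so they are printed without capitals.
IgA-place probe A: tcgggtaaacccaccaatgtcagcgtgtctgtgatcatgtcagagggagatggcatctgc
IgA-place probe B: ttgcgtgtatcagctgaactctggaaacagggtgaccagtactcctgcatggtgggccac
Ighg2b: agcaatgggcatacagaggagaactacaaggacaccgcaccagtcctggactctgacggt
Igkc: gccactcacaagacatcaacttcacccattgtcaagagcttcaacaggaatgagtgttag
Iglc2: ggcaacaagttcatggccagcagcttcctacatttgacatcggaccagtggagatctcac

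The variable probes are different. A run of at least 20 bases was shared with another kept probe by 20 of the 31 heavy chain variable probes and by 3 of the 21 kappa probes, and by none of the other probes. The pairs below are shown because such long shared runs make a signal hard to credit to 1 segment, and capitals mark the run that the members of a pair share. BaPB1-61 (chr12:115707350-115707409) and J558.4 (chr12:115962048-115962107) share 31 bases. FN652764 (chr12:116002746-116002805) and FM179586 (chr12:115895649-115895708) share 39 bases in a row and are identical at 58 of 60 positions. The kappa probes BALB/c-26 (chr6:69494355-69494414) and MRL1-56 (chr6:69349806-69349865) share 53 bases. All 6 are on the minus strand.
BaPB1-61: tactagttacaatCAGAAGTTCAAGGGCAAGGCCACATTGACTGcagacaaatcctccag
J558.4: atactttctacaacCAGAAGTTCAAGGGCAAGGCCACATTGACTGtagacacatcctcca
FN652764: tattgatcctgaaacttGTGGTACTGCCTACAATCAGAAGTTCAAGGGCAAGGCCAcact
FM179586: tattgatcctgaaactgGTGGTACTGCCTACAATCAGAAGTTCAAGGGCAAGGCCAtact
BALB/c-26: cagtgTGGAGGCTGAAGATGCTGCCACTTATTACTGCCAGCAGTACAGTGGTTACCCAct
MRL1-56: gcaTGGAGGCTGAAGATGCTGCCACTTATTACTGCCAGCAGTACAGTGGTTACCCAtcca

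The number of probes that could be detected grew between pre-pro-B and pro-B cells and was lower in hCD4+ than in hCD4- cells of the same stage. Of the 66 immunoglobulin probes, 6 and 4 were well above background on the GMP arrays, 14 and 12 on hCD4+ pre-pro-B arrays, 32 and 34 on hCD4- pre-pro-B arrays, 50 and 39 on hCD4+ pro-B arrays, 62 and 56 on hCD4- pro-B arrays, and 61 and 62 on pre-B arrays. The replicates of hCD4+ pro-B cells differed most, by 11 probes. Heavy chain variable probes made up most of the growth: 2 and 0 of 31 on hCD4+ pre-pro-B arrays, 12 and 10 on hCD4- pre-pro-B arrays, 26 and 22 on hCD4+ pro-B arrays, 29 and 26 on hCD4- pro-B arrays, and all 31 on both pre-B arrays. Of the 19 kappa variable probes, 9 and 6 were detected on hCD4+ pro-B arrays, against 18 and 16 on hCD4- pro-B arrays, and all 19 on both pre-B arrays. The filter shaped these counts, since a probe was kept only if both arrays of some group detected it. AF118932, EU359471, U23092, X87746, the X24 family probe, V kappa 8-16 and BL6immB-20 were kept through the pre-B arrays alone. Their detection on both pre-B arrays was thus fixed in advance, and matched probes that were not kept are left out. These counts were not tested.

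**Figure D1:**
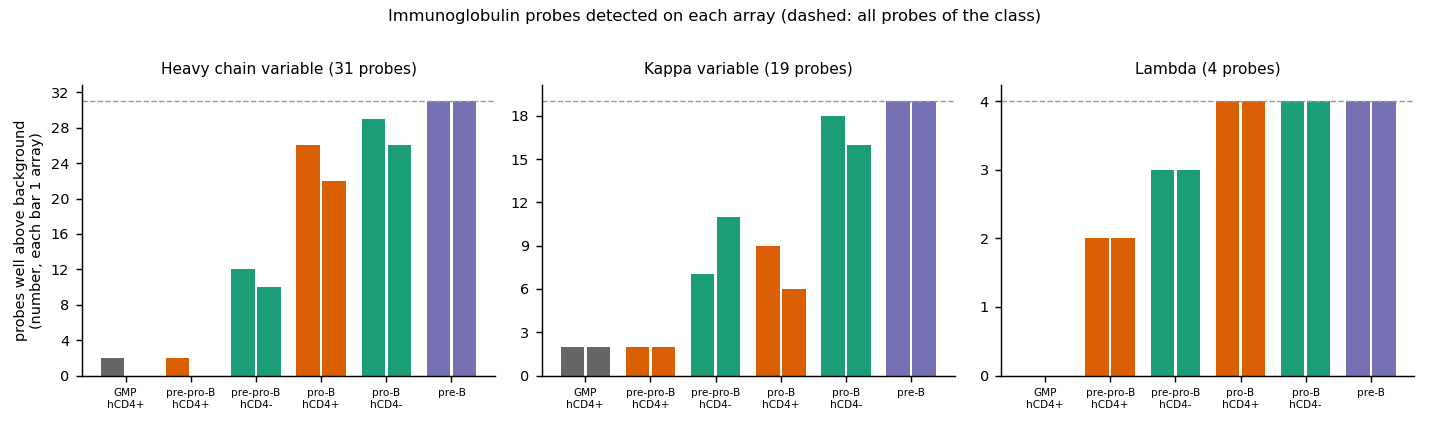
Number of heavy chain variable, kappa variable and lambda probes marked well above background (y axis, count of probes) on each of the 12 arrays, 1 bar an array, with the dashed line at the number of probes in the class. On pre-B arrays all 31 heavy chain variable, 19 kappa variable and 4 lambda probes were detected, whereas hCD4+ pre-pro-B arrays detected 2 and 0 of the heavy chain variable probes. Some heavy chain and kappa variable probes were kept only because both pre-B arrays detected them.

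Changes were tested with limma over all kept probes. The words rose and fell are used where the p-value, adjusted for all probes of a comparison by the Benjamini-Hochberg method, was under 0.05. Counted together, 35 of the 68 probes fell and none rose in hCD4+ over hCD4- pre-pro-B cells, which is 51.5% of the set, whereas of all kept probes 17.4% changed, 8.53% rising and 8.86% falling. Without the second hCD4+ pre-pro-B array 26 changed, and without the first hCD4- pre-pro-B array 45. The median change of the set was -1.69, against -0.07 for all kept probes. Of the 35 probes, 29 were well above background on at least 1 of the 4 arrays, and 6 were on none. Matched probes that were not kept also had lower means in hCD4+ than in hCD4- pre-pro-B cells. Igkv6-15 was at -6.80 against -6.26 and AF466698 at -6.79 against -6.15. A fall of that size in an undetected probe says little about its transcript. Of the 68 probes 25 fell in hCD4+ over hCD4- pro-B cells and none rose, or 36.8%, whereas of all kept probes 18% changed, 10.4% rising and 7.54% falling. The median was -0.85, against 0.03 for all kept probes. This count was the least stable, since it was 14 without the first hCD4- pro-B array, 15 without the first hCD4+ pro-B array, 14 without the second, and 10 of the 25 calls held with each of the 12 arrays left out in turn. All probes that changed in these comparisons had groups that did not overlap. The same held for every called probe of the set in the other comparisons of groups, so it adds no support of its own. In pro-B cells 24 of the 25 were well above background on at least 1 of the 4 arrays. By class, 7 of 9 constant, 16 of 31 heavy chain variable, 7 of 21 kappa and 3 of 4 lambda probes and Igj fell in hCD4+ pre-pro-B cells, beside 1 Rbpj probe. In hCD4+ pro-B cells 5 constant, 6 heavy chain variable, 11 kappa and 2 lambda probes and Igj fell.

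**Figure D2:**
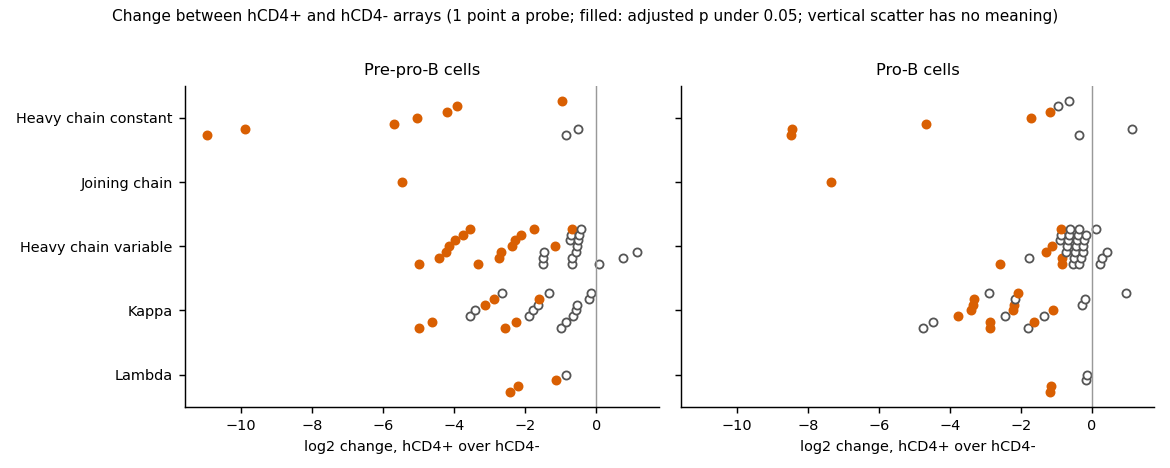
Log2 change in hCD4+ over hCD4- arrays (x axis) of each immunoglobulin probe by class (y axis) in pre-pro-B and pro-B cells, 1 point a probe, filled where the adjusted p was under 0.05. In pre-pro-B cells 16 of 31 heavy chain variable probes are filled and lie left of 0, against 6 of 31 in pro-B cells, and the filled kappa probes number 7 and 11.

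Along the lineage more probes of the set rose than fell. In hCD4- pro-B over hCD4- pre-pro-B cells 41 rose and 3 fell, 64.7% of the set against 59.7% of all kept probes (32% rising and 27.7% falling), so the share changed lay near the background, while the median was 1.85 against 0.01. In hCD4+ pro-B over hCD4+ pre-pro-B cells 43 rose and 2 fell, 66.2% against 52.7% (31.8% rising and 21% falling), with a median of 2.08 against 0.23. In hCD4- pro-B over hCD4+ pre-pro-B cells, on 1 slide, 57 rose and 2 fell, 86.8% against 46.7% (28% rising and 18.6% falling), with a median of 3.90 against 0.14. In pre-B over hCD4+ pro-B cells, also on 1 slide, 43 rose and 6 fell, 72.1% against 42% (18.4% rising and 23.6% falling), with a median of 1.86 against 0.01. In pre-B over hCD4- pro-B cells 24 rose and 11 fell, 51.5% against 38.8% (18.6% rising and 20.2% falling), with a median of 0.72 against 0.03, and 8 of the 11 that fell were the 7 probes of switched constant regions and Igj. In hCD4- pre-pro-B over GMP cells, on 1 slide, 39 rose and 1 fell, 58.8% against 65.3% (30.7% rising and 34.6% falling), with a median of 1.92 against 0.03. The difference between the hCD4 contrasts passed the test for 17 of the 68, 25% against 21.7% of all kept probes (12.4% higher and 9.26% lower), and for 30 without the first hCD4- pre-pro-B array. Comparisons that share a group are not independent.

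The IgA-place probes and Igj were high in hCD4- cells of both early stages and far lower in their hCD4+ counterparts and in pre-B cells. IgA-place probe A read -6.69 and -6.40 on GMP arrays, -3.73 and -3.97 on hCD4+ pre-pro-B arrays, 5.36 and 6.74 on hCD4- pre-pro-B arrays, 0.74 and -5.18 on hCD4+ pro-B arrays, 6.27 and 6.17 on hCD4- pro-B arrays, and -4.88 and -2.96 on pre-B arrays. The hCD4- arrays of both stages were thus the high ones, with no overlap with any other group, and of the hCD4+ pro-B arrays the first was well above background and the second was not. IgA-place probe B, which lies beside it, was high in the same groups: -5.45 and -5.87 on hCD4+ pre-pro-B arrays, against 4.78 and 5.83 on hCD4- pre-pro-B arrays, and -0.11 and -6.11 on hCD4+ pro-B arrays, against 5.48 and 5.23 on hCD4- pro-B arrays. On GMP arrays, at -6.61 and -6.36, and on pre-B arrays, at -6.002 and -4.127, probe B was not well above background. Igj was high in the same groups too, at -3.36 and -3.55 on hCD4+ pre-pro-B arrays, against 1.56 and 2.47 on hCD4- pre-pro-B arrays, and at -3.58 and -6.66 on hCD4+ pro-B arrays, against 2.43 and 2.02 on hCD4- pro-B arrays. It was not well above background on the GMP arrays, at -6.68 and -6.44, the pre-B arrays, at -6.73 and -6.38, or the second hCD4+ pro-B array.

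IgA-place probe A fell in hCD4+ over hCD4- pre-pro-B cells, with a log2 change of -9.90 (SE 1.58, limma adjusted p = 0.00522). Probe B was not well above background on either hCD4+ pre-pro-B array, so its fall is given as a bound, at least 1001-fold lower (limma adjusted p = 0.00325), and probe C was at least 12.2-fold lower (limma adjusted p = 0.000191). For a bound, each array of the undetected group is placed at the lowest level that counted as well above background there, or at the probe's own level where that was higher. Probe A also fell in hCD4+ over hCD4- pro-B cells, with a change of -8.44 (SE 1.58, limma adjusted p = 0.00935). The size of that fall rests on 1 array: without the second hCD4+ pro-B array it was -5.48, and without the second hCD4- pro-B array the adjusted p was 0.0543. The 3 probes did not pass the test in hCD4- pro-B over hCD4- pre-pro-B cells, where probe A changed by 0.17 (limma adjusted p = 0.933) and Igj by 0.21 (limma adjusted p = 0.836). In pre-B over hCD4- pro-B cells probe A fell by 10.14 (SE 1.58, limma adjusted p = 0.0018) and Igj was at least 105-fold lower (limma adjusted p = 0.000156).

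Gamma probes fell in hCD4+ pre-pro-B cells too, and their difference was smaller in pro-B cells. The exception is a probe named Ighg, which was not detected in pre-pro-B cells. Ighg2b read -6.29 and -6.40 on GMP arrays, -2.13 and -2.70 on hCD4+ pre-pro-B arrays, 2.65 and 2.61 on hCD4- pre-pro-B arrays, 3.88 and 3.59 on hCD4+ pro-B arrays, 5.16 and 4.19 on hCD4- pro-B arrays, and -0.86 and -1.41 on pre-B arrays. A probe described as serum IgG2a cDNA read -5.72 and -5.43 on GMP arrays, 0.25 and -0.29 on hCD4+ pre-pro-B arrays, 3.96 and 4.43 on hCD4- pre-pro-B arrays, 4.28 and 4.07 on hCD4+ pro-B arrays, 5.76 and 4.97 on hCD4- pro-B arrays, and -0.316 and -1.002 on pre-B arrays. Both probes were highest on the hCD4- pro-B arrays, and on hCD4+ pro-B arrays they stood well above the hCD4+ pre-pro-B arrays. In pre-pro-B cells Ighg2b fell by 5.04 in hCD4+ over hCD4- cells (SE 0.33, limma adjusted p = 5.15e-05). In pro-B cells its difference was -0.94 (SE 0.33, limma adjusted p = 0.0876). The IgG2a cDNA probe fell by 4.22 (SE 0.34, limma adjusted p = 0.00014) in pre-pro-B cells and by 1.19 (SE 0.34, limma adjusted p = 0.0452) in pro-B cells. The second of these calls was lost when either hCD4+ pro-B array or the first hCD4- pro-B array was left out, with a change of -0.79 (adjusted p = 0.227) without the last, and also without either GMP or either hCD4+ pre-pro-B array.

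Between the stages, Ighg2b rose by 6.15 in hCD4+ pro-B over hCD4+ pre-pro-B cells (SE 0.33, limma adjusted p = 3.99e-06) and by 2.04 in hCD4- pro-B over hCD4- pre-pro-B cells (SE 0.33, limma adjusted p = 0.000855). The difference between the hCD4 contrasts of pro-B and pre-pro-B cells, tested in the same model, was 4.10 for Ighg2b (limma adjusted p = 0.00115), 3.03 for the IgG2a cDNA probe (limma adjusted p = 0.00474) and 2.20 for Ighg2c, the gamma 2c region (limma adjusted p = 0.0251). For Ighg2c that call was lost without the second array of either pre-pro-B group or any 1 of the 4 pro-B arrays. In pre-B over hCD4- pro-B cells the 3 gamma probes changed by -5.81, -6.02 and -6.59 in the order Ighg2b, IgG2a cDNA and Ighg2c. The limma adjusted p-values were 3.02e-05 to 3.29e-05. The IgG2a cDNA probe (chr12:114525496-114525555) and Ighg2c (chr12:114525600-114525659) lie side by side on the minus strand. They are not taken as separate gamma regions, and the name IgG2a rests on the array description. Ighg2c had means of 0.25 in hCD4+ against 4.16 in hCD4- pre-pro-B cells, and of 2.20 against 3.91 in pro-B cells. The probe named Ighg was detected on the first hCD4- pro-B array and both hCD4+ pro-B arrays and nowhere else. Its mean was -2.71 in hCD4+ against -3.83 in hCD4- pro-B cells.

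Mu and delta were highest in pre-B cells. Ighm read 1.31 and 0.84 on GMP arrays, 4.04 and 3.81 on hCD4+ pre-pro-B arrays, 4.66 and 4.22 on hCD4- pre-pro-B arrays, 4.31 and 3.77 on hCD4+ pro-B arrays, 4.53 and 4.29 on hCD4- pro-B arrays, and 5.74 and 5.50 on pre-B arrays. It was detected on every array, GMP included, and the pre-B arrays were above all others. Its differences in hCD4+ over hCD4- cells were -0.51 in pre-pro-B cells (95% confidence interval -1.08 to 0.06) and -0.37 in pro-B cells (-0.94 to 0.20), and neither passed the test (limma adjusted p = 0.188 and 0.343). Ighm rose in pre-B over hCD4- pro-B cells by 1.21 (SE 0.25, limma adjusted p = 0.00637), and in pre-B over hCD4+ pro-B cells, which share a slide, by 1.58 (limma adjusted p = 0.00132). Ighd rose by 1.20 and by 1.85 in these comparisons (limma adjusted p = 0.0108 and 0.00108), the first of which was lost without the second pre-B array or the second hCD4- pro-B array. Ighd fell by 0.98 in hCD4+ over hCD4- pre-pro-B cells (limma adjusted p = 0.0466), a call that was lost without either hCD4+ pre-pro-B array, the second hCD4- pre-pro-B array, or any 1 pro-B or pre-B array.

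**Figure D3:**
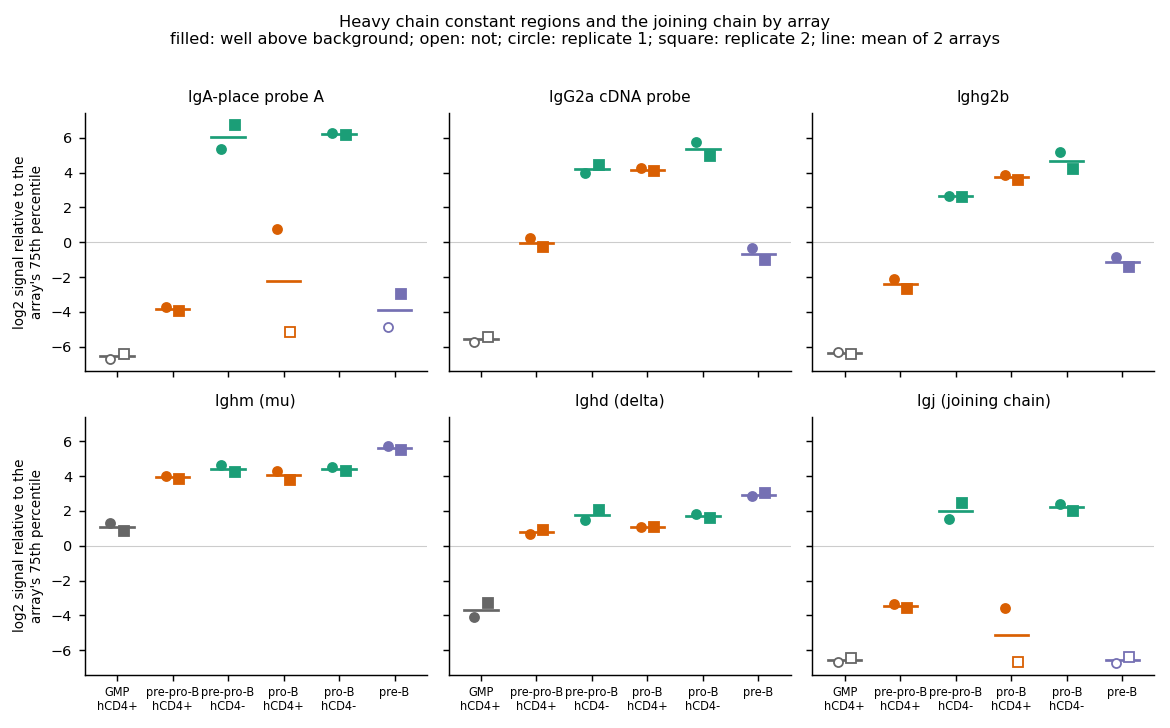
Level (y axis, log2 signal relative to the array's 75th percentile) of 5 heavy chain constant region probes and Igj on each array of the 6 groups (x axis). Filled points were well above background and open points were not, circles are replicate 1, squares replicate 2, and lines the mean of 2 arrays. IgA-place probe A and Igj are highest in hCD4- cells of both early stages, whereas Ighm reads highest on the pre-B arrays, at 5.74 and 5.50.

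Of 14 listed genes of antibody-secreting cells on the array 13 were kept. Sdc1, Prdm1 and Xbp1, a surface proteoglycan and the transcription factors of plasma cells, did not pass the test in hCD4+ over hCD4- cells of either stage. Among all kept probes 17.4% changed in pre-pro-B cells in this comparison (8.53% rising, 8.86% falling) and 18% in pro-B cells (10.4% rising, 7.54% falling). The list had 0 rises and 3 falls in hCD4+ pre-pro-B cells, with Slamf7, a surface receptor, at -0.94 (limma adjusted p = 0.00974), and 0 rises and 4 falls in hCD4+ pro-B cells, with Slamf7 at -1.78 (limma adjusted p = 0.000543). The log2 of its summed signal was 7.57 and 7.497 on hCD4+ pre-pro-B arrays, against 7.76 and 7.62 on hCD4- pre-pro-B arrays, and 6.82 and 6.72 on hCD4+ pro-B arrays, against 7.45 and 7.29 on hCD4- pro-B arrays. The summed signal of the list was highest on pre-B arrays, at 8.03 and 8.06, and on GMP arrays it was 6.45 and 6.50. On pre-B arrays IgA-place probe B and Igj were not detected, and probe A was detected on 1. Ighg2b, Ighg2c and the IgG2a cDNA probe were detected on both. The median change of the list was -0.24 in pre-pro-B and -0.30 in pro-B cells, against -0.07 and 0.03 for all kept probes. Of the genes of late neutrophils 10 were kept. In hCD4+ pre-pro-B cells 2 of the 10 fell and 0 rose, a share near that of all kept probes. These were Ltf and Camp, granule proteins, which fell by 2.42 and 2.06. In hCD4+ pro-B cells 7 of the 10 fell and 1 rose, and S100a9, a calcium-binding protein of neutrophils, fell by 6.52. The median change of the 10 genes was -0.85 in pre-pro-B and -2.93 in pro-B cells. Their summed log2 signal was -1.30 and -1.32 on hCD4+ pre-pro-B arrays, against 1.54 and -0.07 on hCD4- pre-pro-B arrays, and 0.59 and -0.04 on hCD4+ pro-B arrays, against 4.80 and 3.94 on hCD4- pro-B arrays, with 2.49 and 1.85 on GMP and -0.46 and 0.05 on pre-B arrays. The part of either list of cells in the changes of the immunoglobulin probes was not tested.

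Heavy chain variable segments were detected in hCD4- but hardly in hCD4+ pre-pro-B cells and rose in pro-B cells of both kinds. J558.B10, a probe of the large J558 family, read -6.85 and -6.63 on GMP arrays, -6.93 and -6.12 on hCD4+ pre-pro-B arrays, -2.55 and -2.02 on hCD4- pre-pro-B arrays, 0.14 and 0.13 on hCD4+ pro-B arrays, 0.61 and 0.66 on hCD4- pro-B arrays, and 1.09 and 1.57 on pre-B arrays. FM179740 read -6.56 and -6.27 on GMP arrays, -6.58 and -5.44 on hCD4+ pre-pro-B arrays, -2.09 and -1.07 on hCD4- pre-pro-B arrays, 0.52 and 0.59 on hCD4+ pro-B arrays, 1.54 and 1.33 on hCD4- pro-B arrays, and 1.05 and 1.60 on pre-B arrays. Both were below detection on the GMP and hCD4+ pre-pro-B arrays, and in the other groups those of hCD4- pre-pro-B cells lay lowest. BaPB1-61 read -6.87 and -6.59 on GMP arrays, -6.92 and -6.33 on hCD4+ pre-pro-B arrays, -2.21 and -1.07 on hCD4- pre-pro-B arrays, -0.21 and -0.13 on hCD4+ pro-B arrays, 0.39 and 0.34 on hCD4- pro-B arrays, and 0.71 and 1.25 on pre-B arrays. J558.4, which shares 31 bases with it, read -6.74 and -6.50 on GMP arrays, -4.65 and -6.59 on hCD4+ pre-pro-B arrays, -1.999 and -1.26 on hCD4- pre-pro-B arrays, -0.59 and -0.49 on hCD4+ pro-B arrays, 0.11 on both hCD4- pro-B arrays, and 0.75 and 1.26 on pre-B arrays. Both probes had the same order of group means outside the groups that were below detection.

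In hCD4+ over hCD4- pre-pro-B cells J558.B10 was at least 5.19-fold lower (limma adjusted p = 5.84e-05), FM179740 at least 8.49-fold lower (limma adjusted p = 0.000339) and BaPB1-61 at least 8.13-fold lower (limma adjusted p = 8.3e-05). In all, 16 of the 31 heavy chain variable probes fell and none rose, and 12 of the 16 were measured above background on at least 1 of the 4 arrays. In pro-B cells 6 of the 31 fell, again with no rise, where of all kept probes 18% changed and 7.54% fell. Their changes were -0.84 for AJ277813, -0.86 for BApecB1a-P19, -0.84 for SPLH26, -1.12 for J558.2, -1.29 for L2pecB-1a and -2.57 for X87746. Each of these 6 calls was lost when at least 1 of the 4 pro-B arrays was left out. Without the first hCD4- array X87746 changed by -1.50, and without the second hCD4+ array L2pecB-1a changed by -0.84 (limma adjusted p = 0.118). J558.B10 differed by -0.51 there (95% confidence interval -1.17 to 0.16, limma adjusted p = 0.265) and FM179740 by -0.88 (-1.85 to 0.08, limma adjusted p = 0.187). The difference between the hCD4 contrasts of the stages passed the test for 11 of the 31 probes, all with a smaller fall in pro-B cells. It passed for 21.7% of all kept probes, 12.4% higher and 9.26% lower. For those of the 11 not detected in hCD4+ pre-pro-B cells the size of the difference is set partly by the detection limit.

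From pre-pro-B to pro-B cells the variable probes rose as a class. In hCD4+ pro-B over hCD4+ pre-pro-B cells 27 of 31 rose and none fell, with a median change of 4.33. Among all kept probes 52.7% changed there, 31.8% rising and 21% falling. J558.B10 was at least 27.7-fold higher (limma adjusted p = 1.75e-06). In hCD4- pro-B over hCD4- pre-pro-B cells 26 rose and 1 fell, with a median of 2.60, where 59.7% of all kept probes changed, 32% rising and 27.7% falling. J558.B10 rose by 2.92 (SE 0.29, limma adjusted p = 4.65e-05). The fall, of AF118932, concerned a probe that was not detected in either group. In pre-B over hCD4- pro-B cells 12 of the 31 rose and 1 fell, with a median of 0.82. Among all kept probes 38.8% changed there, 18.6% rising and 20.2% falling, so the share changed lay near the background. AF118932, EU359471, U23092, X87746 and the X24 family probe were kept through the pre-B arrays alone. For them a rise to pre-B cells was partly fixed by the filter. The probe that fell was BApecB1a-P19, at -3.04 and -2.83 on pre-B arrays, against -1.45 and -1.59 on hCD4- pro-B arrays (change -1.41, SE 0.17, limma adjusted p = 0.000562). FN652764 and FM179586, which are identical at 58 positions, were both detected on all pro-B and pre-B arrays. On the first hCD4+ pre-pro-B array FN652764 read -1.86 and FM179586 was not detected, at -6.83. The change of FN652764 in hCD4+ pro-B over hCD4+ pre-pro-B cells was 4.13 and depended on that array, being 6.62 without it (limma adjusted p = 0.000572) and 1.63 without the second hCD4+ pre-pro-B array (limma adjusted p = 0.118).

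The change of a variable segment was also set beside its position along the locus. For 28 heavy chain variable probes the array gives a place on chromosome 12, at 157 to 2499 kb from the Ighm probe. In hCD4+ pro-B over hCD4+ pre-pro-B cells the 6 nearest probes had a median change of 1.45 and the 22 farther ones 4.95. The order was the opposite in pre-B over hCD4- pro-B cells, with a median of 1.87 for the nearest and 0.73 for the farther probes. The split was set with the values known, and across the 28 probes Spearman's rho between change and distance was 0.34 and -0.20 in these comparisons. In hCD4+ over hCD4- pro-B cells rho was -0.03, with medians of -0.67 for the nearest and -0.48 for the farther probes, and in hCD4+ over hCD4- pre-pro-B cells rho was -0.29, with medians of -0.49 and -1.92. Of the nearest probes, EU359471, U23092, X87746 and the X24 family probe were kept only because both pre-B arrays detected them. The same held for AF118932 among the farther ones. For these probes, low earlier levels and a rise to pre-B cells were partly fixed by the filter. The order by distance is a description, since the probes share arrays, neighbours share sequence, and detection in the earlier stage limits the size of a change.

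**Figure D4:**
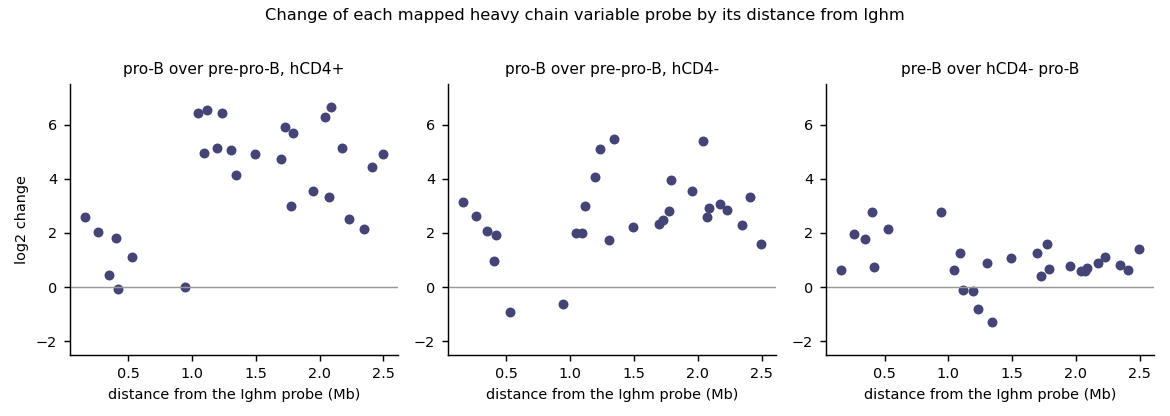
Change of each of 28 mapped heavy chain variable probes (y axis, log2) by its distance from the Ighm probe (x axis, Mb), 1 point a probe, in hCD4+ pro-B over hCD4+ pre-pro-B, hCD4- pro-B over hCD4- pre-pro-B and pre-B over hCD4- pro-B cells. In the first panel the 6 nearest probes have a median of 1.45 and the 22 farther ones of 4.95, and in the last panel 1.87 and 0.73. The nearest include EU359471, U23092, X87746 and the X24 family probe, which were kept only because both pre-B arrays detected them.

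The kappa constant region fell in hCD4+ cells of both stages and was highest in pre-B cells. Igkc read -6.92 and -6.64 on GMP arrays, 1.17 and 0.93 on hCD4+ pre-pro-B arrays, 3.81 and 4.05 on hCD4- pre-pro-B arrays, 2.34 and 1.29 on hCD4+ pro-B arrays, 4.98 and 4.39 on hCD4- pro-B arrays, and 5.76 and 5.68 on pre-B arrays. It was not detected on GMP arrays, and within each stage the hCD4+ arrays lay below the hCD4- arrays. Igkc fell by 2.88 in hCD4+ over hCD4- pre-pro-B cells (SE 0.33, limma adjusted p = 0.00103) and by 2.87 in hCD4+ over hCD4- pro-B cells (SE 0.33, limma adjusted p = 0.00112). Its changes from pre-pro-B to pro-B cells did not pass the test, at 0.76 both in hCD4+ and in hCD4- cells (limma adjusted p = 0.0854 and 0.0806). In pre-B over hCD4+ pro-B cells, on 1 slide, it rose by 3.90 (SE 0.33, limma adjusted p = 5.46e-05). It also rose in pre-B over hCD4- pro-B cells, by 1.03 (limma adjusted p = 0.0396), a call lost without either pre-B array, the second hCD4- pro-B array, either GMP array or either hCD4+ pre-pro-B array.

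Falls in hCD4+ cells were found among kappa variable probes of both stages. BALB/c-26 read -6.66 and -6.38 on GMP arrays, -6.70 and -6.69 on hCD4+ pre-pro-B arrays, -1.76 and -1.64 on hCD4- pre-pro-B arrays, -4.69 and -5.01 on hCD4+ pro-B arrays, -0.90 and -1.26 on hCD4- pro-B arrays, and -0.52 and -0.80 on pre-B arrays. It was not detected on any hCD4+ array of a stage in which both hCD4- arrays detected it. It was at least 7.80-fold lower in hCD4+ pre-pro-B cells (limma adjusted p = 1.35e-05) and at least 11.6-fold lower in hCD4+ pro-B cells (limma adjusted p = 4.13e-05). MRL1-56, which shares 53 bases with it, read -6.51 and -6.50 on hCD4+ pre-pro-B arrays, against -2.25 and -1.48 on hCD4- pre-pro-B arrays, and -4.03 and -4.71 on hCD4+ pro-B arrays, against -0.69 and -1.23 on hCD4- pro-B arrays. Of the 21 kappa probes 7 fell in hCD4+ pre-pro-B cells, 6 of them measured above background. In hCD4+ pro-B cells 11 fell, 10 of them measured, and none rose in either stage. Of all kept probes 8.86% fell in hCD4+ pre-pro-B cells and 7.54% in hCD4+ pro-B cells.

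Kappa variable probes differed in the stage at which they were first detected. AY731702 read -6.90 and -6.58 on GMP arrays, -6.95 and -6.86 on hCD4+ pre-pro-B arrays, -4.48 and -6.09 on hCD4- pre-pro-B arrays, -4.80 and -4.85 on hCD4+ pro-B arrays, -1.53 and -2.39 on hCD4- pro-B arrays, and -0.28 and -0.23 on pre-B arrays. It was first detected in hCD4- pro-B cells and was at least 6.44-fold lower in hCD4+ pro-B cells (limma adjusted p = 0.00524). Its -4.48 on the first hCD4- pre-pro-B array lay above the lowest detected levels of the pro-B arrays, -4.85 to -4.55. AF316510 read -4.80 and -5.50 on GMP arrays, -4.54 and -6.65 on hCD4+ pre-pro-B arrays, -2.98 and -3.69 on hCD4- pre-pro-B arrays, -3.30 and -3.04 on hCD4+ pro-B arrays, -0.80 and -1.41 on hCD4- pro-B arrays, and 0.58 and 0.45 on pre-B arrays. Its pro-B arrays did not overlap, and it fell by 2.07 in hCD4+ pro-B cells (limma adjusted p = 0.0499), a call lost when any 1 array other than the hCD4+ pre-pro-B ones was left out (adjusted p = 0.052 to 0.205). V kappa 21-7, V kappa 21-4 and BALB/c-51 read 0.10, -0.06 and 0.58 on the second hCD4- pre-pro-B array, against -4.98, -6.53 and -6.63 on the first, where they were not detected. All 3 were detected on both hCD4- pro-B arrays and both pre-B arrays. None of these 3 passed the test in either hCD4 comparison. The spread of their hCD4- pre-pro-B arrays (SD 3.59 to 5.10) enters the error of both comparisons, since all groups share 1 model. In pro-B cells their means were lower in hCD4+ than in hCD4- cells. V kappa 21-7 was at -3.91 against -1.02, V kappa 21-4 at -5.62 against -0.86 and BALB/c-51 at -5.97 against -1.50. A missed call is therefore not a sign of equal levels here.

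**Figure D5:**
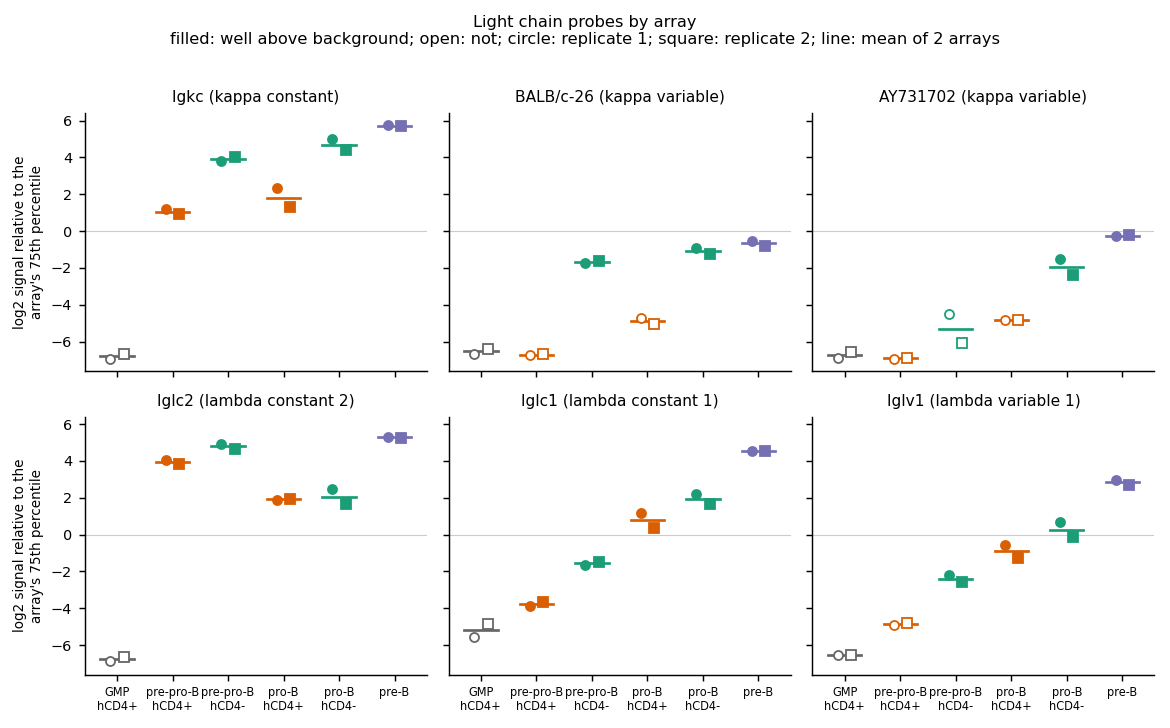
Level (y axis, log2 signal relative to the array's 75th percentile) of 3 kappa and 3 lambda probes on each array of the 6 groups (x axis). Filled points were well above background and open points were not, circles are replicate 1, squares replicate 2, and lines the mean of 2 arrays. All 6 probes are highest on the pre-B arrays, and Iglc2 has its pro-B arrays, at 1.64 to 2.48, below its pre-pro-B arrays, at 3.83 to 4.92.

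The lambda probes did not share a course. Iglc2 read -6.88 and -6.62 on GMP arrays, 4.07 and 3.83 on hCD4+ pre-pro-B arrays, 4.92 and 4.65 on hCD4- pre-pro-B arrays, 1.89 and 1.95 on hCD4+ pro-B arrays, 2.48 and 1.64 on hCD4- pro-B arrays, and 5.32 and 5.24 on pre-B arrays. It was the only immunoglobulin probe well above background that fell from pre-pro-B to pro-B cells in both hCD4+ and hCD4- cells, by 2.02 (SE 0.25, limma adjusted p = 0.000291) and by 2.72 (SE 0.25, limma adjusted p = 3.35e-05). In pre-B over hCD4+ pro-B cells, on 1 slide, it rose by 3.35 (SE 0.25, limma adjusted p = 3.11e-05). Its hCD4 differences did not pass the test, at -0.84 in pre-pro-B cells (95% confidence interval -1.42 to -0.26, limma adjusted p = 0.0559) and -0.14 in pro-B cells (-0.72 to 0.44, limma adjusted p = 0.75).

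The other 3 lambda probes rose from pre-pro-B to pro-B cells and again to pre-B cells. Iglc1, the constant region 1, read -5.54 and -4.83 on GMP arrays, -3.85 and -3.67 on hCD4+ pre-pro-B arrays, -1.64 and -1.48 on hCD4- pre-pro-B arrays, 1.16 and 0.39 on hCD4+ pro-B arrays, 2.19 and 1.66 on hCD4- pro-B arrays, and 4.53 on both pre-B arrays. Iglv1, the variable segment 1, read -6.53 and -6.51 on GMP arrays, -4.90 and -4.77 on hCD4+ pre-pro-B arrays, -2.19 and -2.59 on hCD4- pre-pro-B arrays, -0.54 and -1.25 on hCD4+ pro-B arrays, 0.66 and -0.13 on hCD4- pro-B arrays, and 2.98 and 2.71 on pre-B arrays. The probe of the V lambda x segment was not detected on GMP arrays, at -6.83 and -6.55, on hCD4+ pre-pro-B arrays, at -5.32 and -5.11, or on hCD4- pre-pro-B arrays, at -4.27 and -3.91. It was first detected in pro-B cells, at -3.35 and -2.94 on hCD4+ arrays and -2.58 and -3.40 on hCD4- arrays, and read 0.59 and 0.43 on pre-B arrays. The lowest level that counted as detected was -4.35 and -3.90 on the hCD4- pre-pro-B arrays, but -4.85 to -4.55 on pro-B arrays. The stage of first detection therefore depends partly on the arrays. The pro-B groups of V lambda x overlapped. Iglc1 fell in hCD4+ over hCD4- pre-pro-B cells by 2.20 (SE 0.31, limma adjusted p = 0.00296) and Iglv1 was at least 4.83-fold lower (limma adjusted p = 0.00157). In hCD4+ over hCD4- pro-B cells they fell by 1.15 and 1.16 (limma adjusted p = 0.0371 and 0.0336). Both of the last calls were lost without the second hCD4+ pro-B array or the first hCD4- pro-B array, with changes of -0.77 for Iglc1 and -0.81 for Iglv1 without the second hCD4+ pro-B array and of -0.89 and -0.77 without the first hCD4- pro-B array. Both were also lost without either hCD4+ pre-pro-B array, and that of Iglc1 without the second hCD4- pro-B array or either pre-B array (adjusted p = 0.0523 to 0.0687 for these).

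Genes of antigen receptor assembly, such as the RAG enzymes and the surrogate light chain, changed with stage. Of 25 kept genes of this list, 19 rose and 3 fell in hCD4- pro-B over hCD4- pre-pro-B cells, where 59.7% of all kept probes changed (32% rising and 27.7% falling). Among those that rose were Igll1 at 11.89, Ebf1 at 10.32 and Vpreb3 at 10.22. They encode parts of the surrogate light chain or its partners and a B lineage transcription factor. In hCD4+ over hCD4- pre-pro-B cells 1 gene of the list rose and 1 fell (Igll1 at 2.01 and Irf8, a transcription factor, at -0.51). In hCD4+ over hCD4- pro-B cells 1 rose and 8 fell, with Lig4, the DNA ligase of segment joining, at -1.56 and Irf4, a transcription factor of light chain activation, at -1.23. The shares of all kept probes for these and the next counts were 17.4% changed in pre-pro-B cells (8.53% rising, 8.86% falling) and 18% in pro-B cells (10.4% rising, 7.54% falling). Genes of granulocyte-monocyte progenitors moved against the immunoglobulin probes, with 6 of 8 rising in hCD4+ pre-pro-B cells and 8 of 8 in hCD4+ pro-B cells, and no fall. Their summed log2 signal was 4.32 and 5.59 on hCD4+ pre-pro-B arrays, against 2.07 and 1.95 on hCD4- pre-pro-B arrays, and 7.33 and 7.18 on hCD4+ pro-B arrays, against 1.57 and 1.70 on hCD4- pro-B arrays, with 10.1 and 10.4 on GMP and 1.91 and 2.23 on pre-B arrays. Their median change was 2.91 in pre-pro-B and 6.44 in pro-B cells. Genes of mature B cells fell for 1 of 12 in hCD4+ pre-pro-B cells (Ms4a1 at -0.62) and for 6 of 12 in hCD4+ pro-B cells (Cxcr5 at -2.82 and Cd40 at -1.86 among them), with no rise. The part of these genes' cells in the changes of the immunoglobulin probes was not tested.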

How the data were processed

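Total RNA of 12 sorted samples was amplified, labelled with Cy3 and hybridised to one-colour arrays, per the labels' protocols. The deposited intensity files are scanner output of Feature Extraction 10.7.3.1 with protocol GE1_107_Sep09, per the file headers, whose processed signal is already corrected for background, and the array annotation uses build mm9. Each array holds 43020 spots that are not controls. The authors' deposited table gives log2 values with 1 value per gene name, whose normalization is not given in the sources used here. It served only as an alternative, and its columns had a median of 6.5.

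From the processed signal, spot values with an outlier mark (2469 over all arrays) were left out and no spot was saturated. Levels are log2 signal minus the array's 75th percentile, spots of a probe were averaged, and 23298 of 39429 probes were kept, namely those that both arrays of some group marked well above background. Changes were fitted in limma 3.58.1 (R 4.3.3) with 1 model of 6 groups on 12 arrays, 6 residual degrees of freedom and Benjamini-Hochberg adjustment over all kept probes in each of 8 comparisons and the difference of the hCD4 contrasts. Bounds ("at least") replace a fold change where no array of a group measured the probe. The tests were tested on simulated data. With arrays, precision rests on their number.

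The members, the gene lists and the comparisons were chosen with earlier results of these data known. Values on all arrays are given for up to 4 probes of each class, those with the largest range of group means, and Igj. Ighm, Ighd, Ighg2c, MRL1-56, FN652764, FM179586, BApecB1a-P19 and the kappa probes V kappa 21-7, V kappa 21-4 and BALB/c-51 were chosen after their values were seen. Of list genes those with the largest change are named, and Sdc1, Prdm1 and Xbp1 as defining markers. Plasmacytoid dendritic cell, erythroid, T cell and natural killer cell lists were counted too: in hCD4+ over hCD4- pre-pro-B cells 0 of 9, 0 of 6, 1 of 6 and 0 of 4 genes rose and 1, 1, 1 and 0 fell, in that order of lists, and in hCD4+ over hCD4- pro-B cells 6, 0, 2 and 2 rose and 0, 0, 1 and 1 fell. Among all kept probes 17.4% changed in the first of these comparisons and 18% in the second. Alternatives were other normalizations and background corrections, other filters, a detection floor, array weights, a replicate block, 1 probe per gene name, the arrays compared alone, and each array left out.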

Additional observations from a re-analysis of the deposited data

Results flagged for a closer look

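For 17 of the 68 probes the hCD4 contrast (hCD4+ minus hCD4-) of pro-B cells differed from that of pre-pro-B cells by a test of the difference itself, with limma adjusted p-values of 0.000343 to 0.0485. This is 25% of the set, near the 21.7% of all kept probes that passed (12.4% higher and 9.26% lower). A positive value means that the hCD4+ arrays lay relatively higher in pro-B than in pre-pro-B cells. Among constant region probes the difference was 4.10 for Ighg2b, 3.03 for the IgG2a cDNA probe and 2.20 for Ighg2c. The IgG2a cDNA and Ighg2c probes lie side by side. Among heavy chain variable probes it was 4.45 for BaPB1-61, 3.74 for J558.B10, 3.55 for FM179740, 3.44 for a J558 family probe, 3.34 for J558.4, 3.31 for J558.B20, 2.96 for J558.50, 2.73 for AJ277813, 2.39 for J558.B7, 2.07 for J558.B19 and 1.26 for J558.2. The kappa probes went in opposite directions, with 1.22 for BALB/c-26 and -2.79 for Igkv5-39. Igkv5-39 was not detected in either pre-pro-B group or in hCD4+ pro-B cells. The 17th is Rbpj, at 1.94. Leaving out 1 array ended the call of J558.4 (without the second hCD4- pre-pro-B array or any pro-B array), J558.2 (without either hCD4+ pre-pro-B array, the second hCD4+ pro-B array or either hCD4- pro-B array), BALB/c-26 (without the first hCD4+ or the second hCD4- pro-B array), J558.50 (without either hCD4+ pre-pro-B array or any pro-B array), Ighg2c (without the second array of either pre-pro-B group or any pro-B array) and Rbpj (without any array but the GMP ones and the first hCD4- pre-pro-B one), with adjusted p-values of 0.0509 to 0.132. J558.50 was at 1.96 without the second hCD4- pre-pro-B array. The groups lie on different slides, and slide and hCD4 status cannot be told apart.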

How the results depend on the processing

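With 2 arrays a group, small changes were hard to call, and probes near background have levels whose order means little. The numbers of probes that changed in hCD4+ over hCD4- cells, 35 in pre-pro-B and 25 in pro-B cells, were 23 to 37 and 19 to 35 under the 12 alternatives that keep all arrays, and the lowest of these, 23 in pre-pro-B cells, came from the authors' deposited table. Of 349 calls, the direction turned in 4 with normexp and quantile normalization, in 4 of 316 with the authors' table and in 5 with levels set to a detection floor, and in none under the other 9. With normexp the turned values were 0.10 for AF118932 in hCD4- pro-B over hCD4- pre-pro-B cells, -0.011 for BC103785 in hCD4- pre-pro-B over GMP cells, and -0.13 for BALB/c-26 and -0.12 for J558.B19 in the difference of the hCD4 contrasts. With the authors' deposited table they were 0.05 for AF118932 and, in the difference of contrasts, -0.15 for BALB/c-26, -0.15 for J558.B19 and -0.05 for J558.2. With the floor they were 0.11 for a kappa constant cDNA probe (Igk-C) in hCD4+ over hCD4- pro-B cells, -0.53 for V kappa 8-16 in hCD4- pro-B over hCD4- pre-pro-B cells, -0.10 for the Igk-C probe and -0.10 for U23092 in hCD4- pro-B over hCD4+ pre-pro-B cells, and -0.58 for BALB/c-26 in the difference of contrasts. The cause was not tested.

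Where leaving out an array left a group with 1, limma assumed that it varies like the other groups. The counts with each array left out ran from 26 to 45 for hCD4+ over hCD4- pre-pro-B cells, 14 to 33 for hCD4+ over hCD4- pro-B cells, 33 to 50 for hCD4- pro-B over hCD4- pre-pro-B, 41 to 50 for hCD4+ pro-B over hCD4+ pre-pro-B, 26 to 43 for pre-B over hCD4- pro-B, 37 to 52 for pre-B over hCD4+ pro-B, 35 to 51 for hCD4- pre-pro-B over GMP, 52 to 60 for hCD4- pro-B over hCD4+ pre-pro-B, and 12 to 30 for the difference of contrasts. The extremes past 1.5 times were 14 without the first hCD4- pro-B array, 15 without the first and 14 without the second hCD4+ pro-B array, all in pro-B cells, and 30 without the first hCD4- pre-pro-B array. Of the changes given in the text that had not passed the test, those that turned include that of IgA-place probe A in hCD4- pro-B over hCD4- pre-pro-B cells (-0.12 with quantile normalization, -0.52 without the first and 0.86 without the second hCD4- pre-pro-B array) and that of Igj there (-0.24 and 0.67 without these arrays). So did that of Iglc2 in hCD4+ over hCD4- pro-B cells (0.28 without the first and -0.56 without the second hCD4- pro-B array). Without the first and the second hCD4+ pro-B array, IgA-place probe A changed by -1.34 and 4.59 in hCD4+ pro-B over hCD4+ pre-pro-B cells and by 1.27 and -4.66 in pre-B over hCD4+ pro-B cells, and Igj in the last by 0.11 and -2.97.

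The labels do not say that a replicate number marks a shared mouse or batch. Correlations of replicate differences between groups ran from -0.02 to 0.27 and were over 0.1 in 10 of 15 pairs of groups, not in all, so the numbers were not used to pair the arrays. With the number as a block the counts were 37, 27, 47, 45, 38, 48, 43, 61 and 19 in the order of the ranges just given, and 3 of the 349 calls were lost.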
